A study of Mus musculus with 67 samples.

Results

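The elements described here are the regions of open chromatin at the SoxD genes Sox5, Sox6 and Sox13 and the SoxE genes Sox8, Sox9 and Sox10 in mouse neural progenitors. An element was taken when the deposited HOMER annotation gave 1 of these 6 symbols as its gene name, a rule that used no measured value. It found 81 of the 111638 elements with values and 94 of the 133549 elements in the annotation. SoxD proteins bind DNA through an HMG box and a coiled coil that pairs them, have no activation domain of their own, and work as cofactors that help or hinder other factors. In the spinal cord Sox5 and Sox6 restrain the timing of oligodendrocyte differentiation, and with Sox9 they form the trio that drives cartilage. SoxE proteins carry an activation domain and direct neural crest and glia: Sox9 acts in the switch from making neurons to making glia, Sox10 in oligodendrocytes and crest, and Sox8 overlaps with both.

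The study differentiated the mouse embryonic stem cell line HM1 into neuromesodermal progenitors (NMPs) on day 3 and into ventral neural progenitors on days 4, 5 and 6. Cells were fixed, tagged with Tn5, stained for intracellular transcription factors and flow sorted before the bulk library was made, a method called CaTS-ATAC. All cultures received bFGF up to day 3, the Porcupine inhibitor LGK up to day 2, and CHIR99021, SB-431542 and DMH1 between days 2 and 3. From day 3 every later culture received 100 nM retinoic acid (RA) with 0, 10, 100 or 500 nM of SAG, an agonist of Smoothened that stands in for Sonic hedgehog. The p0-1 cells came from 0 and 10 nM SAG, p2 cells from 10 and 100 nM, and pMN and p3 cells from 100 and 500 nM. There were 67 samples in 25 conditions, 17 with 3 replicates and 8 with 2. Pooled over SAG, the groups held 3 NMP samples, 6, 6 and 5 p0-1 samples on days 4, 5 and 6, 6, 6 and 6 p2 samples, 6, 5 and 4 pMN samples, and 5, 5 and 4 p3 samples. The study describes its biological replicates as independent differentiations. It reports sorting 2 or 3 cell types per condition, so cell types can share a dish. Among these samples, 0 nM SAG gave only p0-1 cells and day 3 only NMPs. Titles and descriptions give different replicate numbers for 15 samples, among them all p3 samples of day 6, and the numbers of the titles are used throughout. Reads in elements ranged from 9298160 to 29985325 per sample, with a median of 20254011. All values below are normalized read counts per element unless another scale is named, and elements are named by gene and signed distance to the annotated transcription start site (TSS).

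The sorted cells were checked at the elements nearest the TSS of their marker genes. The element at T, an NMP gene, averaged 1175 in NMPs and 99.0 to 276 in the 12 groups of neural progenitors. Nkx1-2 was also higher in every NMP sample than in every progenitor sample. Tbx6 was not, at 801, 798.5 and 733 in NMPs and 909, 732, 886, 953 and 807 in p0-1 of day 6. Olig2, the gene that defines pMN, averaged 1358, 1952 and 2325 in pMN on days 4, 5 and 6 and 831, 1040.3 and 1005 in p3. The NMP samples held 1158, 1191 and 993 at Olig2. Pax6 fell from 2197 on day 4 to 1696 on day 6 in p3, against 3208 in pMN on day 6. Nkx2-9, a ventral gene, averaged 2376 in p3 and 1868 in pMN on day 5 and 587 in p0-1. On day 6 it held 1786, 2159, 2113 and 2305 in pMN and 2137, 2026, 1874 and 1619 in p3. These samples overlapped, so on that day Nkx2-9 did not set p3 above pMN. No element within 1000 bp of the TSS was among those analysed for Nkx2-2, Sim1, Dbx1, Cdx2, Foxa2 or Shh, so p3 identity was not read from its defining gene. Accessibility in bulk sorted cells does not separate fewer cells with an open element from an element less open in each cell.

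Most of the 81 elements were distal and many were weak. The annotation placed 50 in introns, 27 between genes, 2 in exons and 2 at promoters. Sox5 on chromosome 6 held 30, Sox6 on chromosome 7 held 28, Sox13 on chromosome 1 held 15, Sox8 on chromosome 17 held 3, Sox10 on chromosome 15 held 3 and Sox9 on chromosome 11 held 2. Averaged over all samples, 34 elements had a mean above 100 and 47 did not. The 31 elements never tested, because their mean stayed at or below 100 in every set of samples compared, had means from 6.53 at Sox5 -161 kb to 77.2 at Sox6 +165 kb. They were 14 at Sox5, 10 at Sox6, 4 at Sox13 and 1 each at Sox8, Sox9 and Sox10. Of the 50 tested in at least 1 of 15 comparisons, 31 were called in at least 1 and 19 in none. The matching share of all elements is not given, so these counts carry no result about the 6 genes as a group. The strongest element was Sox13 -69 kb with a mean of 3186, and per kilobase of element Sox5 +54 kb reached 1314 and Sox6 +91 kb 520.1. The range of the 25 condition means on the variance-stabilized log2 scale had a median of 3.12 over the 81 elements and 2.32 over all 111638. Among elements with a mean above 100 these medians were 4.07 and 1.70.

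From NMPs to neural progenitors of day 4, many elements at the SoxD genes opened from near background. The few lower calls were near or below the share of all elements. The 4 comparisons share the same 3 NMP samples, so they are not separate tests. An element passed the filter in several of them only because it was high in the progenitors, and such an element had to differ. In p0-1 cells 17 of 28 tested elements were called higher and 2 lower, against 14.4% and 6.21% of all elements tested. For p2 cells the counts were 21 higher and 1 lower of 32, against 16.4% and 7.13%. For pMN cells they were 21 and 1 of 32, against 16.9% and 7.41%. For p3 cells they were 16 and 2 of 27, against 13.8% and 7.74%. A call here means an adjusted p under 0.01 from limma with Benjamini-Hochberg correction and an absolute log2 fold change above 2. The median log2 fold change of the tested elements was 3.28, 3.59, 3.67 and 3.12 for p0-1, p2, pMN and p3. Over all elements tested it was -0.39, -0.51, -0.49 and -0.46, so the bulk of elements was lower after day 3 on this scale. Of the 35 elements tested in at least 1 of the 4 comparisons, 24 were called higher in at least 1 and 13 in all 4. The matching shares over all elements are not given for these 2 counts. Of the 31 elements called in any comparison, none was at Sox9 or Sox10 and 1 was at Sox8.

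Sox5 encodes the SoxD member with the most elements here, and its strongest was Sox5 +54 kb (chr6:144154780-144155571, exon 2 of 14). In the 3 NMP samples it held 15.8, 12.1 and 19.4. On day 4 it ran from 625 to 1143 with a median of 852 in p0-1, and from 1074 to 1274 with a median of 1153 in pMN. The 5 p3 samples of day 4 held 700.5, 879.7, 1117, 987 and 1069. Every progenitor sample lay far above every NMP sample, and the 12 progenitor groups formed an unbroken chain of overlapping ranges. The log2 fold change was 5.69 in p0-1 (limma adjusted p 2.8e-10), 5.91 in p2, 6.13 in pMN and 5.83 in p3 (adjusted p 1.3e-13). The promoter element Sox5 -1 kb (chr6:144209215-144211280), which holds the upstream coding start sites, had 44.8, 27.0 and 26.9 in NMPs. It rose to 442, 273, 390.5, 389 and 359.8 in p3 on day 4 and to 625, 481, 568, 453 and 631 on day 5. No NMP sample came near a progenitor sample, and p3 of day 5 and pMN of day 5 overlapped at the top of the order. Its log2 fold change from NMPs was 2.91, 3.40, 3.69 and 3.45 in p0-1, p2, pMN and p3.

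The intronic element Sox5 +167 kb was graded among progenitors. Its NMP samples held 10.9, 12.1 and 10.8, and on day 4 p0-1 ran from 145 to 384 with a median of 317. The p3 samples of day 4 held 491, 624, 769, 892 and 777, and those of day 5 924, 774, 928, 724 and 989. The p3 and pMN groups took the 6 highest means and p0-1 of day 4 the lowest after NMPs, though 11 of 12 neighbours in the order overlapped. Log2 fold changes from NMPs were 4.61 in p0-1, 5.20 in p2, 5.64 in pMN and 5.86 in p3. Sox5 -152 kb (chr6:144360791-144362070) went the other way, with 177, 196 and 526 in NMPs. On day 4 it ran from 29.0 to 40.2 with a median of 35.8 in pMN, and the p3 samples held 58.5, 36.0, 55.2, 59.7 and 54.0. The NMP samples stood apart from all others, with replicate 3 far above the other 2, and it was the only element called lower in all 4 comparisons. Its log2 fold fell by 2.91, 3.10, 3.06 and 2.48 in p0-1, p2, pMN and p3 (largest limma adjusted p 9.5e-06). Without replicate 3 the NMP mean was 186, the log2 change to p3 was -1.84 and no call, and against p0-1, p2 and pMN the element fell below the filter.

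Sox6, which acts with Sox5, had no element annotated promoter-TSS near its first start sites, because the elements there were assigned to the antisense gene Sox6os. Sox6 +128 kb was its strongest element, with 37.6, 51.3 and 48.5 in NMPs. On day 4 it ran from 312 to 1012 with a median of 801 in p0-1, and the p3 samples held 452, 769.7, 761, 709 and 587. All progenitor samples exceeded all NMP samples, and p0-1 of days 5 and 6 had the highest means, 1288 and 1349, with pMN of day 6 overlapping them. Sox6 +170 kb (chr7:115824380-115826445) covers the start of an internal coding transcript. Its NMP samples held 10.9, 12.1 and 16.2, against a range from 90.8 to 285 with a median of 173 in p0-1 and from 382 to 481 with a median of 431 in pMN on day 4. The NMP samples were the lowest, p0-1 of day 4 was next, and no progenitor sample of day 4 reached down to an NMP sample. The log2 fold change was 3.65 in p0-1, 4.42 in p2, 4.94 in pMN and 4.89 in p3. The intronic element Sox6 +322 kb passed the filter from NMPs only in p0-1, where the range was from 76.4 to 237 with a median of 163 against 6.06, 5.40 and 4.31 in NMPs (log2 fold change 4.62). Its means on day 4 fell from dorsal to ventral, 153 in p0-1, 102 in p2, 46.8 in pMN and 27.1 in p3, and no p2 sample of day 4 overlapped a pMN sample.

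Sox13, the SoxD member known from T cells and the developing nervous system, had its largest rise at Sox13 +12 kb (chr1:133411417-133412319, an intron). The NMP samples held 17.0, 8.09 and 18.3. On day 4 the element ran from 506 to 654 with a median of 594 in p0-1 and from 685 to 848 with a median of 729.8 in pMN. The p3 samples of day 4 held 480.4, 535, 521, 554 and 439. On day 4 pMN lay above all p0-1 and p3 samples and overlapped p2, and NMPs lay far below every progenitor. Log2 fold changes were 5.26, 5.41, 5.59 and 5.03 in p0-1, p2, pMN and p3. Sox13 -69 kb was already open in NMPs at 937, 870.0 and 1072 and averaged 2755 to 4053 in the progenitor groups. Its log2 fold changes of 1.52 to 1.76 fell short of a call. Sox13 -25 kb closed, from 259, 178 and 219 in NMPs to 44.4, 24.6, 35.5, 26.3 and 31.5 in p3 of day 4. The NMP samples stood apart from every progenitor group, and the log2 fold fell by 2.71 in p3 and 2.12 in p0-1. Sox13 -25 kb and Sox5 -152 kb passed the filter only through the NMP samples, so they had to differ in that direction, and Sox13 -25 kb was not tested against p2 or pMN. The element over the upstream Sox13 start site, Sox13 +1 kb, held 663, 659.6 and 627 in NMPs and averaged 346 to 710.0 in progenitors. It was called in no comparison, though from NMPs to day 4 it fell without overlap in p2, pMN and p3, with a log2 change of -0.91 in pMN (adjusted p 4.5e-06). From day 4 to day 6 it rose by 0.76 in pMN (adjusted p 8.4e-05).

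At the SoxE genes no element was called between NMPs and day 4, and the elements below are described for their own values. The element over the Sox9 start site, Sox9 +1 kb (chr11:112781151-112785781), held 2813, 3047 and 2270.2 in NMPs. It ran from 1591 to 3062 with a median of 2041 in p0-1 of day 4, and the p3 samples of day 6 held 1552, 1627, 1837 and 1563. The NMP group had the highest mean and p3 of day 6 the lowest, yet every pair of neighbours in the order overlapped. The NMP samples were above all p2, pMN and p3 samples of day 4. Log2 fold changes from NMPs were -0.35, -0.58, -0.45 and -0.63 in p0-1, p2, pMN and p3. These lie near the medians over all elements tested, given above. The other Sox9 element, Sox9 -12 kb, was too low to be tested, at 8.49, 13.5 and 6.46 in NMPs and means of 52.3, 72.1, 88.1 and 53.8 in p0-1, p2, pMN and p3 of day 4. No sample of day 4 came down to the NMP samples, and on day 6 the means were 21.9 to 37.8. Sox8 +14 kb fell from 313, 259 and 251 in NMPs to means of 111 to 152 on day 4. The groups did not overlap, and the log2 change was -0.85, -1.20 and -1.29 in p0-1, p2 and pMN. The test in p3 gave an adjusted p of 5.3e-05, with a fall smaller than in p2 and pMN. Sox8 +23 kb, never tested, held 70.3, 56.7 and 57.1 in NMPs and averaged 7.52 to 11.5 on day 4, also without overlap. At Sox10, whose protein marks crest and oligodendrocytes, the element over the start site (Sox10 +1 kb) held 232, 187 and 165 in NMPs and 26.4, 20.3, 18.5 and 26.2 in p3 of day 6. The NMP samples lay above all progenitor samples of day 4, and the log2 fold change was -1.44 in p0-1 (limma adjusted p 1.8e-04) and -1.85 in pMN (adjusted p 1.3e-07), short of the fold for a call. In these comparisons Sox10 +1 kb passed the filter only through the NMP samples, so a fall was built into its selection. Sox10 +9 kb averaged 64.9 in p3 of day 4 and 192 in pMN of day 6, and its 13 groups overlapped along the whole order. Within pMN it rose from a mean of 104 on day 4 without overlap (log2 change 0.88, adjusted p 6.7e-04), short of the fold for a call. Among neural crest markers, Foxd3 averaged 752 in NMPs and 279 to 431 in progenitors. Over 4 of the 5 crest genes that had an element, the sum ran from 3004 to 3350.4 with a median of 3286 in NMPs and from 1510.2 to 2075 with a median of 1904 in pMN of day 4, and its part in the Sox10 values was not tested.

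From day 4 to day 6 a handful of elements moved within each cell type. In p0-1, 2 of 30 tested elements were called higher and 1 lower, against 6.93% and 2.07% of all elements. In pMN, 3 of 34 were higher and 1 lower, against 7.94% and 1.98%. In p3, 3 of 36 were higher and 2 lower, against 7.44% and 1.69%. These shares lie near the background and carry no result about the 6 genes as a group. The elements below are described for their own values.

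Sox13 -28 kb (chr1:133452088-133453306, intergenic) opened by day 4 in all 4 cell types and closed again by day 6 in p0-1, pMN and p3. Its NMP samples held 64.2, 32.4 and 37.7. On day 4 it ran from 740.3 to 1148 with a median of 1005 in p0-1, and on day 6 the p0-1 samples held 35.3, 63.4, 32.1, 58.2 and 58.1. The p0-1 samples of day 6 were back at the NMP level, and no p0-1 sample of day 4 came near them. In p3 the samples held 419.9, 739, 579.8, 448 and 555 on day 4, 89.7, 255, 264, 335 and 260.1 on day 5 and 106, 96.6, 86.6 and 45.6 on day 6. In p2 the mean went from 714 on day 4 to 75.9 on day 6, a change that was not tested. The 4 means of day 4 were above every later mean, with the only gap of the order after p3 of day 4. From NMPs to day 4 the log2 fold change was 4.40 in p0-1, 3.97 in p2, 3.64 in pMN and 3.59 in p3. From day 4 to day 6 it was -4.26 in p0-1 (limma adjusted p 2.8e-09), -2.73 in pMN and -2.70 in p3. Between these days the element passed the filter only through day 4, so a fall was built into its selection.

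Sox13 -46 kb also rose by day 4 and was lower again on day 6 in p0-1, pMN and p3. It held 129.7, 94.4 and 214 in NMPs and ran from 966 to 1273 with a median of 1118 in pMN on day 4. On day 6 it held 536, 564, 427 and 562 in pMN and 168, 101, 186 and 69.9 in p3. The pMN samples of day 4 were above every other sample group, and p3 of day 6 was at the NMP level. The p0-1 samples of days 5 and 6, with means of 190 and 201, also overlapped the NMP samples. In p2 the mean fell from 875 on day 4 to 377 on day 6 without overlap, a change that was not tested. Only in p3 was the fall called (log2 fold change -2.44, adjusted p 4.3e-06), while p0-1 and pMN gave -1.69 and -1.09. The interaction of p3 with pMN was -1.35 (limma adjusted p 0.00109), short of the fold for a call.

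Sox6 +91 kb (chr7:115903234-115904164, intron 2 of 16) opened by day 4 and opened further by day 6 in p0-1 and pMN. Its NMP samples held 7.27, 4.05 and 14.0. From these the log2 change to day 4 was 4.39, 4.05 and 4.15 in p0-1, p2 and pMN, all called, and the comparison with p3 was below the filter. The p0-1 samples ran from 129 to 298 with a median of 194 on day 4 and held 1282, 1235, 1197, 1205 and 1081 on day 6. The pMN samples ran from 132 to 209 with a median of 162 on day 4 and held 820.3, 752, 779.6 and 684 on day 6. The p3 samples averaged 129.8 on day 4 and 269.8 on day 5 and held 242, 212, 199.8 and 136 on day 6, in the range of the day 4 groups. The order had gaps after p0-1 of day 5, p2 of day 5 and p3 of day 4, which set p0-1 of days 5 and 6 at the top and pMN and p2 of those days next. From day 4 to day 6 the log2 fold change was 2.60 in p0-1 (adjusted p 8.7e-08), 2.19 in pMN (adjusted p 5.0e-09) and 0.60 in p3. The interaction of p3 with pMN was -1.58 (adjusted p 1.4e-05), short of the fold for a call. Without replicate 2 the value in pMN was 1.98 and no longer called.

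The internal Sox6 promoter at +170 kb rose from day 4 to day 6 in every progenitor type, and its highest means were in p3 and p0-1 of day 6. In p0-1 it reached 1202, 798, 957, 993 and 629 on day 6, and in p3 it reached 1227, 1484, 1114 and 1755. The pMN samples of day 6 held 554, 499, 584 and 558. The p2 samples ran from 174 to 397 on day 4 and from 465 to 733 on day 6, without overlap, and their change was not tested. The p3 samples were all above the pMN samples, and the p0-1 samples overlapped p3 of day 5. The change from day 4 was 2.38 in p0-1 (adjusted p 8.8e-06), 0.35 in pMN and 1.74 in p3. In pMN and p3 it was short of a call, though the samples of the 2 days did not overlap. The call in p0-1 was lost without replicate 2, at 1.97.

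Sox8 +9 kb (chr17:25560745-25562334, intergenic), the only called SoxE element, opened in p0-1, p2 and pMN from day 4 to day 6. It held 128, 86.3 and 58.2 in NMPs and ran from 99.8 to 129 with a median of 114 in pMN of day 4. The pMN samples held 356, 346, 369, 234 and 256 on day 5 and 602, 670.4, 418 and 606 on day 6. The p3 samples held 50.5, 45.5, 46.0, 37.5 and 37.5 on day 4 and 104, 79.3, 61.2 and 44.7 on day 6. Every pMN sample of day 6 was above every pMN sample of day 4, while p3 stayed at the foot of the order on all 3 days. Its log2 change from day 4 to day 6 was 2.32 in pMN (adjusted p 5.9e-09) and 1.86 in p0-1, which was short of a call. The p0-1 means went from 124 to 249 at 0 nM SAG and from 108 to 540 at 10 nM, a difference that was not tested. The change in p3 differed from that in pMN by -1.60 (adjusted p 7.5e-05), short of the fold for a call. The p2 samples ran from 96.5 to 146 with a median of 111 on day 4 and from 423 to 711 with a median of 519 on day 6, without overlap, and their change was not tested. Sox5 +43 kb, an intronic element, rose in pMN from a range of 31.5 to 76.4 on day 4 to 216, 284, 249.5 and 367 on day 6. The groups did not overlap, and the log2 fold change was 2.20 (adjusted p 9.2e-07), against 1.98 in p3. Sox5 +43 kb passed the filter only through the samples of day 6, so a rise was built into its selection. Accessibility at neuronal genes, taken as a sum, rose over the same days. Summed over the elements of Tubb3, Elavl3, Elavl4, Dcx and Stmn2, it ran from 2173 to 2531 with a median of 2437 on day 4 and from 4762 to 5515 with a median of 5146 on day 6 in pMN. In p3 this sum ran from 2121 to 2544 with a median of 2263 and then from 2946 to 4423 with a median of 3465, and its part in the changes of the Sox elements was not tested. Not every gene of the sum rose. In p3 Stmn2 fell from a range of 303 to 391 on day 4 to 142 to 186 on day 6, and Dcx overlapped between these days. In NMPs the elements of Tubb3, Elavl3 and Stmn2 were higher than in every pMN sample of day 4, and those of Elavl4 and Dcx lower.

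Which elements separate pMN, the source of motor neurons and later oligodendrocytes, from the neighbouring p3 domain was asked on each day, with both cell types taken from 100 and 500 nM SAG. On day 4 limma called 0 of 29 tested elements higher in p3 and 0 lower, against 0.179% and 1.07% of all elements. At an unadjusted p under 0.05 there were 16, and limma with voom on the recovered reads also called 0. Counts at an unadjusted p and under voom are given here and below without the share of all elements. They carry no result about a group of genes. At a log2 fold above 1 the counts were 0 higher and 3 lower, against 1.91% and 6.05%. On day 5, 0 of 37 were called higher and 1 lower in p3, against 1.99% and 3.68%. At an unadjusted p under 0.05 there were 22 on day 5, and voom called 1. At the lower fold of day 5, 4 were higher and 7 lower, against 7.00% and 12.1%. On day 6, 3 of 38 were called higher and 3 lower, against 5.03% and 5.97%, and at the lower fold 8 and 8, against 10.4% and 15.5%.

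The element called on day 5 was Sox8 +9 kb, which held 54.7, 77.7, 78.3, 49.6 and 54.8 in p3. Against the pMN samples of that day the groups did not overlap, and the log2 fold change was -2.29 (limma adjusted p 2.0e-07) on day 5 and -2.97 on day 6. On both days Sox8 +9 kb passed the filter only through pMN, so a lower value in p3 was built into its selection. Sox13 +12 kb held 954, 899, 932 and 799 in pMN and 313, 202, 210.2 and 90.3 in p3 on day 6. The p3 samples were the lowest of all progenitor groups, and the log2 fold change was -2.13 (adjusted p 1.9e-04). Sox13 -77 kb, chosen after its values were seen, was the other element lower in p3 on day 6, at -2.02. It also passed the filter only through pMN.

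The 3 elements higher in p3 on day 6 were Sox5 -60 kb, Sox5 +58 kb and Sox6 +196 kb. Sox5 -60 kb (chr6:144269372-144269978) held 59.2, 69.5, 77.2 and 61.9 in pMN and 376, 291, 355 and 357 in p3. On day 4 p3 held 46.4, 64.5, 68.4, 81.0 and 72.7, and on day 5 294, 194, 214, 229.7 and 265. The p3 samples of days 5 and 6 stood above every other group, and p3 of day 4 was among the pMN values. The log2 fold change was 2.35 on day 6 (adjusted p 4.8e-06) and 1.43 on day 5, and within p3 it was 2.35 from day 4 to day 6. In these comparisons Sox5 -60 kb passed the filter only through p3 of days 5 and 6, so the direction was built into its selection. Sox6 +196 kb (chr7:115798261-115799413, intron 3 of 16) held 22.2, 15.2, 86.8, 82.0 and 113 on day 4, 97.8, 54.7, 132, 66.2 and 242 on day 5 and 226, 429, 228 and 581 on day 6 in p3. The pMN samples of day 6 held 16.1, 35.7, 24.0 and 66.6. All p3 samples of day 6 were above all pMN samples, while within p3 of day 6 the samples of replicate 3 were higher than those of replicate 2 at both SAG concentrations. Its log2 fold change was 3.32 between the cell types (adjusted p 1.6e-04) and 2.50 over time in p3. Both comparisons were open to Sox6 +196 kb only through p3 of day 6, so the direction was built into its selection. The call over time was lost when SAG concentrations were averaged per replicate (adjusted p 0.0129) and when the p3 samples of 100 nM on day 4 were left out (log2 fold change 1.90). Sox5 +58 kb, chosen after its values were seen, held 93.2, 128, 108 and 182 in pMN and 602, 495, 530.1 and 552 in p3 on day 6. The groups did not overlap, and the log2 fold change was 2.08. Sox6 +271 kb rose within p3 from 22.2, 39.8, 65.7, 63.8 and 81.7 on day 4 to 312, 291, 262 and 342 on day 6. Those groups did not overlap, and the log2 fold change over time was 2.44 (adjusted p 1.5e-05), against 1.65 between pMN and p3 of day 6. In both comparisons Sox6 +271 kb passed the filter only through p3 of day 6, so higher values there were built in. Sox6 +426 kb, also chosen after its values were seen, was lower in p3 on all 3 days, with means of 619, 1122 and 1343 in pMN and 192, 315 and 344 in p3. No day had overlapping samples, and the log2 fold changes of -1.68, -1.83 and -1.96 fell just short of a call.

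The interaction asked whether the change from day 4 to day 6 differed between p3 and pMN. Of 36 tested elements, 2 were called with a larger change in p3 and 0 with a smaller one, against 1.32% and 1.02% of all elements. For the count of 0, limma gave 20 elements in either direction at an unadjusted p under 0.05, and voom called 1 in all. Sox5 -60 kb had a difference of 2.32 in log2 (adjusted p 5.9e-06), with pMN means of 65.3 and 66.9 and p3 means of 66.6 and 345. Sox6 +196 kb had a difference of 2.69 (adjusted p 0.00187), with pMN means of 40.9 and 35.6 and p3 means of 63.9 and 366. Both elements passed the filter only through p3 of day 6, so a difference in that direction was built into their selection. With no filter both were still called. The call at Sox6 +196 kb did not hold under voom (adjusted p 0.0198), with SAG concentrations averaged (0.0435), without the p3 samples of 100 nM on day 4 (0.0142) or without replicate 1 (0.0156).

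Between p0-1 and pMN on day 6, 0 of 33 tested elements were called higher in pMN and 1 lower, against 2.19% and 0.714% of all elements. At an unadjusted p under 0.05 limma gave 19, and voom called 1. The cell types also differ in the SAG they received, and the effects of cell type and SAG cannot be told apart here. The element was Sox6 +322 kb (chr7:115672820-115673382), which held 308, 177, 145, 233 and 168 in p0-1 and 41.2, 23.5, 42.1 and 30.4 in pMN. The groups did not overlap, and the log2 fold change was -2.56 (limma adjusted p 8.8e-05). The element passed the filter only through p0-1, so a lower value in pMN was built into its selection. In p0-1 of day 5 it had its highest mean, 325, and in p3 it averaged 27.1, 28.8 and 25.1.

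Within a cell type, SAG concentration was compared on day 5, at a fold above 2. In p0-1 between 0 and 10 nM limma called 0 of 35 elements, against 0.00318% of all elements, with 11 at an unadjusted p under 0.05 and 0 called by voom. For pMN between 100 and 500 nM it called 0 of 37, against 0%, with 2 at that unadjusted p and 0 by voom. For p3 between the same concentrations it called 0 of 37, against 0%, with 0 at that unadjusted p and 0 by voom. Sox13 +12 kb, chosen after its values were seen, held 426, 453 and 465 at 0 nM and 692, 764 and 716 at 10 nM in p0-1. The groups did not overlap, but the log2 difference was 0.69 and short of a call (limma adjusted p 0.0266). Sox8 +9 kb held 186, 129.9 and 194 at 0 nM and 313, 235 and 316 at 10 nM in p0-1. These groups did not overlap either, and the log2 difference was 0.76 (adjusted p 0.11). In pMN the same element held 356, 346 and 369 at 100 nM and 234 and 256 at 500 nM, so it was lower at the higher concentration. The log2 difference was -0.54 (adjusted p 1).

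Several start sites of these genes lie in elements that the annotation gave to a neighbour. In GENCODE vM21 on mm10, the most upstream coding starts of Sox6 at 116031047 and 116038744 on chromosome 7 fall in elements named for Sox6os, which averaged 837 to 1649 and 325 to 492 in the 13 groups. The Sox8 start at 25570686 on chromosome 17 falls in an element named for Cerox1, which averaged 753 to 1394. None of these was called in any comparison, though the stronger Sox6os element changed by -0.74 (adjusted p 2.0e-06) and the Cerox1 element by -0.89 (adjusted p 3.8e-06) in log2 from NMPs to pMN of day 4. The Sox8 start was 1394 in NMPs and 1146 and 1162 in pMN and p3 of day 6, where Sox8 +9 kb averaged 574 and 72.3.

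For the element of each gene with the widest range among its elements with a mean above 100, the most similar elements at other genes were sought by Pearson correlation of the 25 condition means on the log2 scale, among 31710 elements with a mean above 100. These correlations are descriptions and were not tested. Sox5 +54 kb was closest to elements at Ednrb (r 0.992), Fsip1 (0.991) and Jag1 (0.991). Sox6 +91 kb was closest to elements at Mir181a-2 (0.982), Mir10b (0.979) and Cplx2 (0.978). Sox13 +12 kb was nearest to elements at Fryl (0.987), Gm17746 (0.986) and Tiam1 (0.978). Sox8 +9 kb lay nearest to elements at Bmper (0.982), Neurog1 (0.979) and 4930550C17Rik (0.976). At Sox9 and Sox10 only Sox9 +1 kb and Sox10 +9 kb passed that limit, with ranges of 0.78 and 1.55, and the weaker Sox9 -12 kb and Sox10 +1 kb had wider ranges of 2.41 and 2.60. For Sox9 +1 kb the closest were the promoters of Nme2 (0.939), Rtn4 (0.934) and Eif5a (0.933). For Sox10 +9 kb they were elements at Efnb1 (0.944), Tex29 (0.911) and Gm10421 (0.901).

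Motifs were counted on both strands in the 300 bases around the center of each element. The SOX motif ACAAAG was in 37 of the 81 windows (45.7%) and in 31.1% of all 111638 windows, and the SOX motif ACAATG was in 27 (33.3%) and 21.1%. At least 1 of these was in 54 windows (66.7%), against 44.6% of all. The E-box CAGCTG was in 20 (24.7%) against 21.1%, the homeodomain motif TAATTA in 7 (8.64%) against 7.84%, the forkhead motif GTAAACA in 4 (4.94%) against 4.95%, and the GLI motif GACCACCCA in 0 against 0.393%. A match says nothing of binding. The windows below belong to 6 of the elements whose courses over cell types and days were described above, chosen after their values were seen. They are from the plus strand of mm10, in lower case, with matches to the motifs above, or to their reverse complements, in capitals. Sox5 +54 kb (chr6:144155025-144155324) spans coding sequence of Sox5, Sox6 +91 kb (chr7:115903549-115903848), Sox6 +196 kb (chr7:115798687-115798986) and Sox13 +12 kb (chr1:133411718-133412017) lie in introns, and Sox13 -28 kb (chr1:133452547-133452846) and Sox8 +9 kb (chr17:25561389-25561688) lie between genes.
Sox5 +54 kb: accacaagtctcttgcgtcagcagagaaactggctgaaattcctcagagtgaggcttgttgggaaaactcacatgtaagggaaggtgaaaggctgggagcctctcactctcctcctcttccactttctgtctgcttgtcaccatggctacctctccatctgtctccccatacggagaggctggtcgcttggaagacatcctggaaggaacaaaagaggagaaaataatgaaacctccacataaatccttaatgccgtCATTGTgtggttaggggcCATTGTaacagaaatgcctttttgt
Sox6 +91 kb: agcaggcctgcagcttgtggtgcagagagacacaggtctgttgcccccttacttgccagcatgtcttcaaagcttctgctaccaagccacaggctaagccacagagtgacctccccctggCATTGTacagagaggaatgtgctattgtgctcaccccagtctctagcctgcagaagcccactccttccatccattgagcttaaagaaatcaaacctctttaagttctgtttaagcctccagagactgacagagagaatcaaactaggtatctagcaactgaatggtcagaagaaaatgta
Sox6 +196 kb: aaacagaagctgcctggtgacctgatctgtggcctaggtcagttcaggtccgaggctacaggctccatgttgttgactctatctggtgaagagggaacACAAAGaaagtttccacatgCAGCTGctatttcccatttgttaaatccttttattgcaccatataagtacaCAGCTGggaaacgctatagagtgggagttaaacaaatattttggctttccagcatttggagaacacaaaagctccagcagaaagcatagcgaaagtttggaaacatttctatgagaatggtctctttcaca
Sox13 -28 kb: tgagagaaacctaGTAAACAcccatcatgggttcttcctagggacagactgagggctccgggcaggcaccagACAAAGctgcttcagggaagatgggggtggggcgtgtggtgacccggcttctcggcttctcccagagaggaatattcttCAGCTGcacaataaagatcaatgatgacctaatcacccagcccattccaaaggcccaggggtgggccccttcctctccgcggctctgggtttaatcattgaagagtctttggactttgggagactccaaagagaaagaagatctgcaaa
Sox13 +12 kb: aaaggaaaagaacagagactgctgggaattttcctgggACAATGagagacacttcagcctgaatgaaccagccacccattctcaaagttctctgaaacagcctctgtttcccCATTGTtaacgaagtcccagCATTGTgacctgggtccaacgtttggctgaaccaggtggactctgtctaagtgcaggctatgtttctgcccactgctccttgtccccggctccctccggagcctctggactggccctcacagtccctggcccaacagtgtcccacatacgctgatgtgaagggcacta
Sox8 +9 kb: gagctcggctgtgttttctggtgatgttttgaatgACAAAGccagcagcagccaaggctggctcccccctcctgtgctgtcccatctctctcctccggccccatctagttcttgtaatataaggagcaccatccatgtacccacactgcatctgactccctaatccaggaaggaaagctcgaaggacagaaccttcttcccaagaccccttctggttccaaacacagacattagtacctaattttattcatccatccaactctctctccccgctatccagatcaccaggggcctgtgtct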

How the data were processed

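The authors aligned reads to mm10 with nf-core/atacseq, called consensus peaks with MACS, counted reads per element, and deposited log2 values from the variance-stabilizing transformation of DESeq2 after size-factor scaling. The deposited HOMER annotation gave each element's gene name and distance to the TSS. Here the transformation was inverted to normalized counts and reads, which were whole below 1000 reads within 1e-06. Each comparison tested every element of the table whose average over its samples exceeded 100 counts. Tests used limma 3.58.1 (trend, two-sided, Benjamini-Hochberg over all elements tested) in R 4.3.3 on the log2 values, pooled over SAG and without a block. A call required adjusted p < 0.01 together with a log2 fold change beyond 2 either way, or a fold above 2 between SAG concentrations. Fold changes came from mean counts plus 1. Fits were tested on simulated data. For each gene the element at or nearest the TSS, the strongest other element and the one of widest range among those averaging above 100 were named. For each comparison the largest call each way, or every call where there were 5 or fewer, was named. Pairing of replicate numbers was checked by correlation of residuals and met the criterion, 3 shared numbers with every correlation above 0.1, in 2 of 15 comparisons: pMN against p3 on day 5 (lowest correlation 0.403) and p0-1 of 0 and 10 nM SAG (0.637). In 5 more, with only 2 shared numbers, every correlation was also above 0.1 (lowest 0.307). Members and lists were chosen with earlier results of these data known. Python 3.11.15, numpy 2.4.6, pandas 2.3.3 and pysam 0.24.0 were used.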

Additional observations from a re-analysis of the deposited data

Results flagged for a closer look

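The change from day 4 to day 6 differed between p3 and pMN at 2 elements by a test of the difference itself (limma interaction term). At Sox5 -60 kb the log2 change in p3 exceeded that in pMN by 2.32 (adjusted p 5.9e-06), from means of 65.3 and 66.9 in pMN and 66.6 and 345 in p3. At Sox6 +196 kb the excess was 2.69 (adjusted p 0.00187), from means of 40.9 and 35.6 in pMN and 63.9 and 366 in p3. Both elements passed the filter only through p3 of day 6, so a difference in that direction was built into their selection, and with no filter both were still called. The call at Sox6 +196 kb was lost under 4 alternatives, and without replicate 3 the element fell below the filter and was not tested. In the 41 groups of 4 to 6 samples examined at named elements, 0 had a sample beyond Dixon's limit. The NMP groups, with 3 samples, were not examined, so the high NMP replicate 3 of Sox5 -152 kb, at 526 against 177 and 196, was not tested.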

How the results depend on the processing

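No fold change of a named element reversed under any alternative. Of 238 alternative values for 26 pairs of element and comparison, 230 kept their call and 8 lost it. Of 155 alternative counts of called elements, 126 were within 1.5 times the main count. With no filter all 81 elements were tested, and the counts, beside the percent of all elements called in the same fit, were 45, 50, 51 and 53 (27.5, 32.1, 32.6 and 29.8%) for NMPs against p0-1, p2, pMN and p3, 8 and 7 (10.7 and 12.7%) over days 4 to 6 in p0-1 and pMN, 1, 7 and 14 (1.97, 8.87 and 13.4%) for pMN against p3 on days 4, 5 and 6, 2 (3.69%) for p0-1 against pMN, and 6 (5.22%) for the interaction. With a fold above 2, which gives more calls by construction, the counts were 10, 9 and 16 (21.7, 24.99 and 24.0%) over days 4 to 6 in p0-1, pMN and p3, 3, 11 and 16 (7.96, 19.1 and 25.9%) for pMN against p3 on days 4, 5 and 6, 6 (12.3%) for p0-1 against pMN, and 10 (10.6%) for the interaction. The interaction called 1 element under voom, 1 with SAG averaged per replicate number, and 1 without the p3 samples of 100 nM on day 4. That last alternative was chosen after seeing the data, because this condition has the lowest mean of reads in elements. Leaving out each replicate in turn gave 1 to 3 for the interaction and 1 to 2 for p0-1 against pMN. For these the cause was not tested. The median range over the 25 conditions, 3.12, became 4.30 on log2 of counts plus 1, 4.07 among elements with a mean above 100, 2.94 with samples centered on their median, and 3.14 to 3.25 without each replicate in turn. A replicate block changed no count and kept 26 of 26 calls of named elements. All of these use the replicate numbers of the titles. Of the named pairs, 22 could be tested without replicate 3. The filter left 31 of the 81 elements untested in every comparison, and what depth limits was not tested.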

Other observations

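The 12 glial genes held 124 elements at 12 genes. From NMPs to p0-1, p2, pMN and p3 of day 4, limma called 5, 7, 9 and 6 glial elements higher and 2, 3, 3 and 3 lower, of 38, 39, 41 and 39 tested (all elements: 14.4, 16.4, 16.9 and 13.8% and 6.21, 7.13, 7.41 and 7.74%). Over days 4 to 6 in p0-1, pMN and p3 it called 4, 5 and 4 higher and 0, 1 and 1 lower of 38, 45 and 47 (all elements: 6.93, 7.94 and 7.44% and 2.07, 1.98 and 1.69%). For p3 against pMN on days 4, 5 and 6 it called 0, 1 and 2 higher and 1, 4 and 6 lower of 42, 48 and 50 (all elements: 0.179, 1.99 and 5.03% and 1.07, 3.68 and 5.97%), with 20, 31 and 29 at an unadjusted p under 0.05. In pMN against p0-1 of day 6 the glial counts were 4 and 1 of 49 (all elements: 2.19% and 0.714%), and in the interaction 0 and 0 of 47 (all elements: 1.32% and 1.02%). The 3 SAG comparisons called 0 of 40, 46 and 47 glial elements, with 5, 1 and 0 at an unadjusted p under 0.05. Nfia +140 kb, chosen after its values were seen, averaged 813 in pMN and 77.6 in p3 on day 6 (log2 fold change -3.37, limma adjusted p 3.0e-05). Olig1 +32 kb, chosen after its values were seen, averaged 11.4 in NMPs and 757 in pMN of day 4 (log2 fold change 5.94, limma adjusted p 1.2e-12). Both elements passed the filter only through pMN, so these directions were built into their selection.

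The 8 cartilage matrix genes held 58 elements at 8 genes. From NMPs to p0-1, p2, pMN and p3 of day 4, limma called 0, 0, 1 and 1 cartilage matrix elements higher and 0, 0, 0 and 0 lower, of 10, 10, 11 and 12 tested (all elements: 14.4, 16.4, 16.9 and 13.8% and 6.21, 7.13, 7.41 and 7.74%). Over days 4 to 6 in p0-1, pMN and p3 it called 0, 1 and 0 higher and 0, 0 and 1 lower of 11, 12 and 11 (all elements: 6.93, 7.94 and 7.44% and 2.07, 1.98 and 1.69%). For p3 against pMN on days 4, 5 and 6 it called 0, 0 and 1 higher and 0, 2 and 2 lower of 11, 11 and 12 (all elements: 0.179, 1.99 and 5.03% and 1.07, 3.68 and 5.97%), with 4, 7 and 9 at an unadjusted p under 0.05. In pMN against p0-1 of day 6 the cartilage matrix counts were 0 and 0 of 10 (all elements: 2.19% and 0.714%), and in the interaction 1 and 1 of 12 (all elements: 1.32% and 1.02%). The 3 SAG comparisons called 0 of 10, 10 and 10 cartilage matrix elements, with 3, 0 and 0 at an unadjusted p under 0.05. Hapln1 -102 kb, chosen after its values were seen, averaged 358 in pMN and 16.6 in p3 on day 6 (log2 fold change -4.35, limma adjusted p 1.4e-05). Col9a1 +53 kb, chosen after its values were seen, averaged 10.6 in pMN and 196 in p3 on day 6 (log2 fold change 4.09, limma adjusted p 2.2e-04). Hapln1 -102 kb passed the filter only through pMN and Col9a1 +53 kb only through p3, so these directions were built into their selection.

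The 13 other Sox genes held 107 elements at 12 genes. From NMPs to p0-1, p2, pMN and p3 of day 4, limma called 9, 7, 8 and 5 other Sox elements higher and 1, 2, 1 and 1 lower, of 41, 40, 39 and 37 tested (all elements: 14.4, 16.4, 16.9 and 13.8% and 6.21, 7.13, 7.41 and 7.74%). Over days 4 to 6 in p0-1, pMN and p3 it called 7, 7 and 7 higher and 1, 1 and 2 lower of 47, 44 and 41 (all elements: 6.93, 7.94 and 7.44% and 2.07, 1.98 and 1.69%). For p3 against pMN on days 4, 5 and 6 it called 0, 0 and 1 higher and 0, 0 and 4 lower of 38, 41 and 41 (all elements: 0.179, 1.99 and 5.03% and 1.07, 3.68 and 5.97%), with 15, 22 and 24 at an unadjusted p under 0.05. In pMN against p0-1 of day 6 the other Sox counts were 0 and 0 of 46 (all elements: 2.19% and 0.714%), and in the interaction 0 and 1 of 43 (all elements: 1.32% and 1.02%). The 3 SAG comparisons called 0 of 43, 43 and 41 other Sox elements, with 5, 3 and 0 at an unadjusted p under 0.05. Sox3 +162 kb, chosen after its values were seen, averaged 4.60 in pMN of day 4 and 812 in pMN of day 6 (log2 fold change 7.18, limma adjusted p 2.3e-11). It passed the filter only through day 6, so a rise was built into its selection.

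The 14 intergenic elements upstream of Sox5 lie inside non-coding Sox5 transcripts of GENCODE vM21 that start at 144781919 and 144781977 on chromosome 6. The element over those starts, annotated to Sox5os3, averaged 458 in NMPs and 262 to 586 in the 12 progenitor groups. It was called in no comparison.

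Among genes of the oligodendrocyte and astrocyte lineages, the element nearest the TSS of Cspg4 averaged 116 in NMPs and 14.6 in pMN of day 6. No element within 1000 bp of the TSS was among those analysed for Pdgfra and Zfp488. Olig1 averaged 792 in pMN on day 4 and 1099.8 on day 6, against 589.9 in p3 on day 6. In NMPs Olig1 held 1139, 1171 and 1020, near its level in pMN of day 6. Aldh1l1 fell in pMN from a range of 337 to 504 on day 4 to 134 to 208 on day 6. Nfia and Nfib rose in pMN over these days without overlap. Fabp7 averaged 85.4 and 304 in pMN on days 4 and 6, and 138 in p3 on day 6.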
